A study of Homo sapiens with 6 samples.

Results

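The aryl hydrocarbon receptor and the genes it is best known to control were followed in HT29 colorectal cancer cells deprived of an essential amino acid. The 7 genes were fixed by name: AHR, the receptor, ARNT, its partner, AHRR, its repressor, the cytochrome P450 genes CYP1A1, CYP1A2 and CYP1B1, and TIPARP. All 7 were found by symbol among the 60676 genes of the tables. HT29 is an established human line from a colon adenocarcinoma, and all cells here were wild type. They were kept for 48 h in control medium (called untreated), in medium lacking histidine, or in medium lacking tryptophan, and mRNA of 2 samples in each condition was sequenced. RPMI 1640 was the base for removing histidine and DMEM F-12 the base for removing tryptophan, both with dialyzed serum, and complete RPMI is named as control for other experiments of the study but not for the untreated RNA samples. Between the depletions the missing amino acid and the base medium cannot be told apart, and against untreated cells they could be only where the control shared the base. Nothing states that the samples of a condition were separate cultures, so p-values measure the spread between these samples, which may be technical. No protein, ligand or enzyme activity was measured.

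AHR is a transcription factor of the bHLH-PAS family that waits in the cytoplasm, bound to HSP90 and the co-chaperone p23. When it binds a flat aromatic ligand, which may be a pollutant or a product of tryptophan metabolism such as kynurenine, it moves to the nucleus, pairs with ARNT and binds DNA at sites with the core GCGTG. CYP1A1, CYP1A2 and CYP1B1 are its textbook targets and encode monooxygenases that oxidize many of its ligands. AHRR competes with AHR for ARNT and DNA, and TIPARP is a mono-ADP-ribosyltransferase that modifies AHR and limits its activity, so both are targets that act back on the receptor. In the colon the receptor is known for its part in sensing compounds from diet and bacteria.

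The libraries held 46390819 to 64388876 recovered reads. Expression is given as scaled counts, the reads of a gene divided by a size factor estimated over all 6 libraries together. Levels of different genes are compared only as RPKM, the reads per kilobase of exon relative to the library total. The epithelial markers EPCAM, CDH1, KRT8, KRT18, KRT20, VIL1 and CDX2 had reads in all 6 libraries, while CDX1 was at 0 in both histidine-depleted libraries. The summed level of the 8 epithelial markers was 374620 to 398690 in untreated cells, 508140 to 534390 without histidine and 539330 to 541460 without tryptophan. Its members moved apart without histidine, where the mean of KRT8 went from 194082 to 330690 while that of KRT18 went from 120874 to 83724 and that of CDX2 from 463 to 177. Whether RNA per cell or the mix of cell states changed cannot be told apart in such bulk samples.

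The stretch before the start site is printed for 4 of the genes, because CYP1A1 and CYP1A2 are neighbours that differed in having reads at all, and TIPARP and AHRR are the targets that act back on the receptor. Each line gives the 250 bases before a start site, 5′ to 3′ on the strand of the gene, from RefSeq on GRCh38.p14. Capitals mark the core GCGTG or, where it lies on the opposite strand, CACGC.
CYP1A1, minus strand, chr15:74725529-74725778: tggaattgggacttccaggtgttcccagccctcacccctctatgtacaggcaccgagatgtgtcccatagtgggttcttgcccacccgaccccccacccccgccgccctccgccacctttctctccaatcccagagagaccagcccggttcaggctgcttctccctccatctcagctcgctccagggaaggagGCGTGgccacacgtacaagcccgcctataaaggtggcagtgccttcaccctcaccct
CYP1A2, plus strand, chr15:74748595-74748844: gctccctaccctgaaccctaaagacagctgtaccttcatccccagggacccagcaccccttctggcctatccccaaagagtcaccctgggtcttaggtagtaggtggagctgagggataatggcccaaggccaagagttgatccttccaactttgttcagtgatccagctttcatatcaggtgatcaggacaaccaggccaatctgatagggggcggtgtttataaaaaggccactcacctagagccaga
TIPARP, plus strand, chr3:156674340-156674589: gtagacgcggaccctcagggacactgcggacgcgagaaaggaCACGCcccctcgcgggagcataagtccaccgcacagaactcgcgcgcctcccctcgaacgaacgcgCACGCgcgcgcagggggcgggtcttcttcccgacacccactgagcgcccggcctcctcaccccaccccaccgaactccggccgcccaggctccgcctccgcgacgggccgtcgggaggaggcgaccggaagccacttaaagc
AHRR, plus strand, chr5:321464-321713: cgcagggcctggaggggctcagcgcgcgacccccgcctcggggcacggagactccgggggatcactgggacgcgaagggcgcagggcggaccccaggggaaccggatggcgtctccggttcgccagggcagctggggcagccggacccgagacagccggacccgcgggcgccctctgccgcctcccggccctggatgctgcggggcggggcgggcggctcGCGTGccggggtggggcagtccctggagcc
The CYP1A1 window held 1 core, at bases -57 to -53 counted from the start site. TIPARP held 2, both on the opposite strand, at -208 to -204 and -142 to -138, and the windows of its other start sites held 0. AHRR held 1 at the start site shown, at -30 to -26, and 2 at another start site. No core lay in the windows of CYP1A2, AHR or ARNT, and a window of CYP1B1 was not analysed here. Among all 35116 windows of this length, 32.22% held the core at least once and 10.23% at least 2 times, and GCGTG is also one form of the core bound by HIF with ARNT. A match is a description of the letters and not a bound site, and enhancers farther away, which are known for CYP1A1, lie outside these windows.

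In untreated cells the 7 genes covered a wide range per length. TIPARP was highest with 12.3 ± 0.375 RPKM (SD, n = 2), followed by ARNT with 9.39 ± 0.106 and AHR with 4.71 ± 0.108. CYP1B1 was at 0.977 ± 0.0555, close to the middle of the protein-coding genes, of which 49.5% were lower. CYP1A1 and AHRR were near the limit of detection with 0.0306 ± 0.0112 and 0.0157 ± 0.00614 RPKM, from 4 to 10 reads a library. CYP1A2 had 0 reads in all 6 libraries, which allows up to 3 reads, or 0.0149 to 0.0207 RPKM, in a library, and it entered no test. No neighbours in this order overlapped between libraries, but CYP1A1 and AHRR rested on so few reads that their order is not resolved.

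After histidine depletion, 4 of the 6 genes with enough reads to test were called higher (AHR, AHRR, CYP1A1 and TIPARP), CYP1B1 was called lower and ARNT did not pass. Calls were common in this comparison, since 39.1% of 18288 tested genes were called higher and 38.2% lower. After tryptophan depletion, 5 of 6 were called higher (AHR, AHRR, CYP1A1, CYP1B1 and TIPARP) and ARNT was called lower. There the background was 36.1% higher and 34.8% lower of 17960 tested genes. The median log2 fold change of the 6 genes was 0.81 without histidine and 1.06 without tryptophan, against 0.010 and 0.013 over all tested genes. CYP1A1 and AHRR averaged under 10 counts in untreated cells and passed the filter on low counts only through the depleted libraries, so these counts and medians describe the tested genes and support nothing by themselves. Both comparisons use the same untreated libraries. A call means an adjusted p below 0.05 in limma, and fold changes are differences of log2(normalized count + 1), which understate the change of genes with few reads.

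The receptor itself rose about equally in both media. AHR (ENSG00000106546, chromosome 7, 16916359 to 17346152, plus strand) had 1954 and 1952 scaled counts in the untreated libraries, 2839 and 3038 without histidine and 2868 and 3050 without tryptophan. All 4 depleted libraries lay above both untreated ones. The log2 fold change was 0.60 (SE 0.055, 95% interval 0.48 to 0.71, adjusted p = 5.15e-10) after histidine depletion and 0.59 (SE 0.0517, 0.49 to 0.69, adjusted p = 5.96e-21) after tryptophan depletion. In limma without trend the same changes had adjusted p = 0.00324 and 0.00459. Without histidine CYP1A1 and TIPARP then had 0.00149 and 0.00121. How small the p-values are, here and for the other genes, therefore depends on how limma models the variance. Increases larger than that of AHR were found for 27.4% of tested genes without histidine and 19.4% without tryptophan. A gene annotated on the same strand, ENSG00000283321, shares 29.5% of the exonic bases of AHR and was listed at 0 in all libraries. Reads in the shared exons may have been left out as ambiguous, which would lower the level of AHR in every library.

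ARNT, which also pairs with the hypoxia-inducible factors, moved little and in the other direction. ARNT (ENSG00000143437, chromosome 1, 150809713 to 150876708, minus strand) had 3044 and 3192 scaled counts in untreated cells, 2910 and 2929 without histidine and 2621 and 2703 without tryptophan. The groups did not overlap and kept this order. ARNT fell by 0.24 on the log2 scale after tryptophan depletion (SE 0.0501, adjusted p = 1.37e-05). After histidine depletion the log2 fold change was -0.085 (95% interval -0.19 to 0.024, adjusted p = 0.143). It passed there with quantile normalization (-0.17, adjusted p = 0.0017), with edgeR (-0.095, adjusted p = 0.0375), without untreated replicate 1 (-0.12, adjusted p = 0.0341) and with reads scaled to library totals (-0.27, adjusted p = 4.61e-05).

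TIPARP showed the strongest rise among the well-expressed genes that were higher in both media. TIPARP (ENSG00000163659, chromosome 3, 156673235 to 156706770, plus strand) had 2921 and 3147 scaled counts in untreated cells, 6970 and 6609 without histidine and 5434 and 5443 without tryptophan. The groups did not overlap, and histidine-depleted cells had the most. The mean rose 2.24 times without histidine, with a log2 fold change of 1.17 (SE 0.0537, adjusted p = 7.66e-16). Without tryptophan it rose 1.79 times, with a log2 fold change of 0.84 (SE 0.0483, adjusted p = 2.85e-35). Between 13.0% and 13.2% of tested genes rose more than TIPARP in each comparison.

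The repressor AHRR was close to silent throughout. AHRR (ENSG00000063438, chromosome 5, 321714 to 438291, plus strand) had 5 and 10 reads in the untreated libraries, 13 and 21 without histidine and 21 and 19 without tryptophan. Every depleted library had more reads than either untreated library, though by as little as 13 against 10. The gene passed the filter on low counts only through the depleted libraries, so its tests only describe these reads. AHRR was called higher with a log2 fold change of 1.01 without histidine (SE 0.448, 95% interval 0.087 to 1.94, adjusted p = 0.0436) and 1.29 without tryptophan (SE 0.431, 0.44 to 2.15, adjusted p = 0.00523). The call without histidine was lost in edgeR (adjusted p = 0.0554), DESeq2 (0.229), limma without trend (0.104) or filter (0.118), with quantile normalization (0.122) or library totals (0.104), and without untreated replicate 1 (0.227), where the log2 fold change was 0.63. With any of the other libraries that could be left out it was at most 1.42. With a pseudocount of 8 it was 0.63 without histidine and 0.83 without tryptophan. The call without tryptophan was lost in DESeq2 (adjusted p = 0.108), without untreated replicate 1 (0.0637) and without tryptophan depletion replicate 1 (0.0937). A read-through gene of the newer annotation, PDCD6-AHRR, covers 58.7% of the exonic bases of AHRR and is not among the genes counted.

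CYP1A1, the most used readout of an active receptor, had the largest rise of the 6 tested genes in both media with the main pseudocount of 1. CYP1A1 (ENSG00000140465, chromosome 15, 74719542 to 74725536, minus strand) had 6 and 4 reads in the untreated libraries, 87 and 63 without histidine and 78 and 70 without tryptophan. In scaled counts these were 6.56 and 3.98, then 78.6 and 64.1, then 83.2 and 64.1. The untreated and depleted libraries stood far apart, while both depletions covered the same range. The mean was 13.5 times higher without histidine and 14.0 times higher without tryptophan. On the log2 scale the change was 3.56 (SE 0.339, 95% interval 2.86 to 4.26, adjusted p = 9.33e-10) and 3.58 (SE 0.347, 2.90 to 4.27, adjusted p = 3.38e-18). CYP1A1 passed the filter on low counts only through the depleted libraries. Its tests and its rank among tested genes therefore only describe the rise. With so few untreated reads the size depends on the pseudocount, and with 8 in place of 1 it was 2.58 and 2.60. CYP1B1 without tryptophan was at least 2.86 in every alternative, so with a pseudocount of 8 it rose more than CYP1A1 there. Larger increases were found for 1.36% of tested genes without histidine and 0.29% without tryptophan. Even so, CYP1A1 stayed at a low level, with 0.364 ± 0.0541 RPKM without histidine and 0.403 ± 0.0750 RPKM without tryptophan (SD, n = 2).

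CYP1A2, an enzyme best known from liver, lies 23309 bases from CYP1A1 in the opposite orientation (ENSG00000140505, chromosome 15, 74748845 to 74756607, plus strand). It had 0 reads in the same libraries in which CYP1A1 rose. As printed above, the window before its start site held no GCGTG, and that of CYP1A1 held 1, as did 32.22% of all windows at least once. Whether the core bears on the reads of either gene was not tested, and sites outside these windows were not searched.

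CYP1B1 is expressed outside the liver and oxidizes estrogens as well as aromatic hydrocarbons. Of the 6 tested genes it separated the depletions most. CYP1B1 (ENSG00000138061, chromosome 2, 38066973 to 38109902, minus strand) had 286 and 320 scaled counts in untreated cells, 244 and 223 without histidine and 2265 and 2424 without tryptophan. The libraries of each condition formed a group of their own, with tryptophan-depleted cells highest and histidine-depleted cells lowest. The rise without tryptophan was 7.73 times in mean count, or 2.94 on the log2 scale (SE 0.0686, 95% interval 2.81 to 3.08, adjusted p = 3.01e-79), and 0.657% of tested genes rose more. Without histidine CYP1B1 fell by 0.37 on the log2 scale (SE 0.11, adjusted p = 0.00433). This fall did not pass with quantile normalization (-0.18, adjusted p = 0.143) or without untreated replicate 2 (-0.28, adjusted p = 0.0581).

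With this rise CYP1B1 came close to ARNT and AHR in level per length. In tryptophan-depleted cells it reached 7.15 ± 0.324 RPKM (SD, n = 2), between ARNT with 7.59 ± 0.147 and AHR with 6.76 ± 0.277, and the library ranges of CYP1B1 and AHR overlapped. As given above, reads in the 29.5% of AHR's exonic bases shared with another gene may have been left out. The level of AHR may thus be too low, and its order against CYP1B1 and ARNT here is not resolved. In histidine-depleted cells CYP1B1 stayed at 0.664 ± 0.0457 RPKM, below AHR with 6.25 ± 0.269. TIPARP remained highest in both, with 24.2 ± 1.03 RPKM without histidine and 20.8 ± 0.0258 without tryptophan. The antisense gene CYP1B1-AS1 overlaps 11.3% of CYP1B1's exonic sequence and had the same order of groups. It was at 66.7 and 47.7 scaled counts in untreated cells, 29.8 and 38.7 without histidine and 174 and 154 without tryptophan. Whether strand was used in counting is not given in the sources used here, so reads of the pair in the shared bases may be mixed. The summed leukocyte markers, most of them from CD14, had that order too, with 118 to 141 scaled counts in untreated cells, 54.2 to 65.1 without histidine and 369 to 384 without tryptophan. The defining leukocyte gene PTPRC reached at most 2.13, and the part of these markers in the result was not tested.

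**Figure D1:**
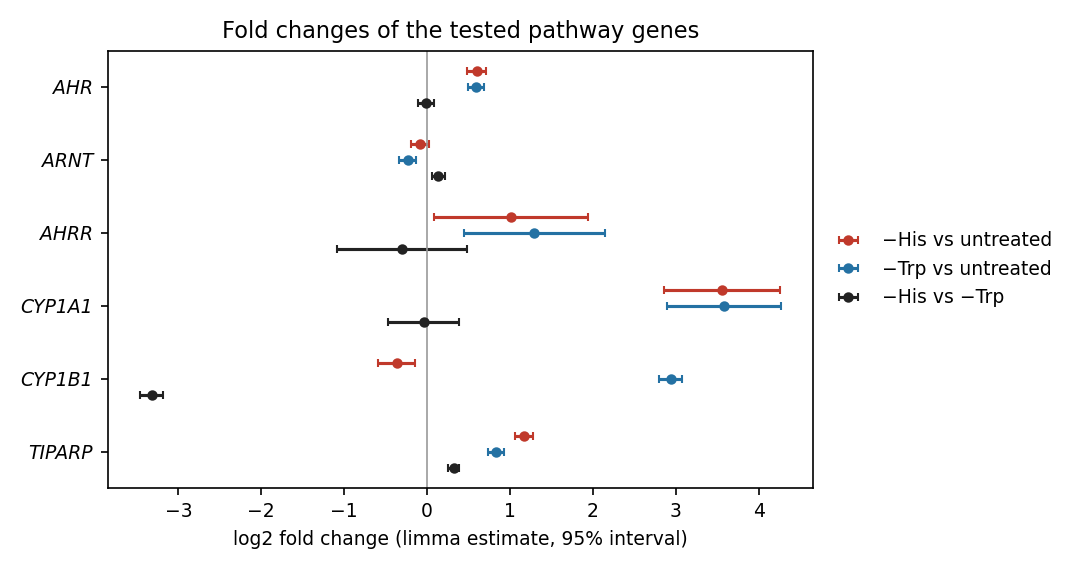
Log2 fold change (horizontal axis, limma estimate with its 95% interval, 2 libraries against 2) of the 6 tested genes for histidine depletion against untreated, tryptophan depletion against untreated, and histidine against tryptophan depletion. CYP1A1 lies at 3.56 and 3.58 in both depletions, and CYP1B1 at -0.37 and 2.94.

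Setting the depleted libraries directly against each other tested which genes responded differently. Of the 6 genes, TIPARP and ARNT were called higher without histidine and CYP1B1 was called lower, in a comparison in which 39.9% of 18276 tested genes were called higher and 38.4% lower. CYP1B1 was 10.0 times higher in mean count without tryptophan, and its log2 difference, histidine minus tryptophan depletion, was -3.32 (SE 0.0651, 95% interval -3.47 to -3.18, adjusted p = 9.01e-13). Only 0.673% of tested genes had a lower value. TIPARP was higher without histidine by 0.32 on the log2 scale (SE 0.0325, 0.25 to 0.39, adjusted p = 2.12e-06). ARNT was higher by 0.13 (SE 0.0353, adjusted p = 0.00448), a call that was lost with library totals (0.032, adjusted p = 0.415), with quantile normalization (0.077, adjusted p = 0.0567), in limma without trend (adjusted p = 0.0515), in DESeq2 (0.12, adjusted p = 0.054), and without tryptophan depletion replicate 1 (0.11, adjusted p = 0.0583). The other three did not pass. The difference was -0.010 for AHR (95% interval -0.11 to 0.086, adjusted p = 0.839), -0.041 for CYP1A1 (-0.47 to 0.39, adjusted p = 0.857) and -0.30 for AHRR (-1.08 to 0.48, adjusted p = 0.459). With library totals AHR passed at -0.11 (adjusted p = 0.0256).

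The choice of scaling bears on small changes. Dividing by total reads instead of size factors moved the median of all genes by -0.19 on the log2 scale without histidine and by -0.072 without tryptophan. The share of calls that were higher then went from 50.6% to 41.1% without histidine, from 50.9% to 45.3% without tryptophan, and from 50.9% to 45.8% between the depletions. AHR, CYP1A1, TIPARP and CYP1B1 kept their directions and calls against untreated cells under this scaling.

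The proteins that hold and assist the receptor were considered next, as a list of 11 genes. Without histidine 7 of 11 were called higher and 3 lower (39.1% and 38.2% of all tested genes), with a median log2 fold change of 0.32. Without tryptophan 4 were higher and 5 lower (36.1% and 34.8% of all), with a median of 0.033. Since most tested genes were called in each comparison, the number of called members is in itself close to the background. The chaperone genes took opposite courses. HSP90AA1 had 41711 and 41894 scaled counts in untreated cells, 103961 and 101842 without histidine and 33966 and 35326 without tryptophan. Its log2 fold change was 1.31 (adjusted p = 1.04e-15) without histidine and -0.28 (adjusted p = 1.67e-06) without tryptophan, and HSP90AB1 changed by 0.96 (6.59e-12) and -0.57 (1.55e-15). Both have close copies in the genome, and how reads mapping to several places were treated is not given. PTGES3, which encodes p23, rose by 0.32 (adjusted p = 1.13e-05) without histidine and fell by 0.45 (2.51e-15) without tryptophan, though the rise did not pass with quantile normalization (0.060, adjusted p = 0.0759).

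The coactivators moved separately. CREBBP, an acetyltransferase, rose in both media, by 1.08 (adjusted p = 8.1e-15) without histidine and 0.55 (4.1e-21) without tryptophan on the log2 scale. CUL4B, a scaffold of the ubiquitin ligase in which AHR can take part, rose by 1.03 (adjusted p = 1.58e-15) without histidine and had 0.033 (0.538) without tryptophan. Among the p160 coactivators, NCOA1 had -0.020 (adjusted p = 0.78) without histidine, or -0.21 (0.0033) with library totals, and rose by 0.76 (1.2e-26) without tryptophan. NCOA3 was called higher in both media, at 0.20 (adjusted p = 5.96e-04) and 0.59 (1.31e-23), the former not with quantile normalization (0.0085, adjusted p = 0.826) or library totals (0.014, 0.712). NCOA2 fell by 0.93 (adjusted p = 2.87e-13) without histidine and was called higher without tryptophan at 0.12 (0.016), though not with library totals (0.052, 0.158).

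Of 13 other bHLH-PAS genes, the family that supplies alternative partners for ARNT, 8 had enough reads to test. In each depletion 7 of the 8 were called higher and 1 lower, with median log2 fold changes of 0.60 without histidine and 0.55 without tryptophan, against the background shares given above. HIF1A, the oxygen-regulated partner of ARNT, rose by 1.03 (adjusted p = 4.18e-15) without histidine and 0.17 (7.12e-04) without tryptophan. EPAS1, which encodes HIF-2α, had 3362 and 3615 scaled counts in untreated cells, 7841 and 7849 without histidine and 9145 and 9091 without tryptophan. It rose by 1.18 (adjusted p = 3.26e-16) and 1.38 (2.78e-59). CLOCK, of the circadian clock, rose by 0.51 (adjusted p = 5.6e-09) and 0.70 (4.07e-28). NPAS1 rose by 2.32 (adjusted p = 5.27e-12) and 1.00 (6.95e-06). The clock gene NPAS2 fell by 1.64 (adjusted p = 4.19e-13) without histidine and rose by 0.69 (9.34e-16) without tryptophan. The gene called lower without tryptophan was BMAL2, which fell by 0.43 (adjusted p = 6.36e-14). ARNT2, the close relative of ARNT, had at most 1.07 scaled counts in any library.

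Other genes reported to respond to the receptor did not follow CYP1A1 without histidine. Of 13 such genes 10 were tested, and 9 of the 10 were called lower without histidine, against 38.2% of all tested genes, with a median log2 fold change of -1.21. Without tryptophan 5 were higher and 2 lower, against 36.1% and 34.8% of all, with a median of 0.13. UGT1A1, a glucuronosyltransferase, had 349 and 333 scaled counts in untreated cells, 20.8 and 31.5 without histidine and 386 and 390 without tryptophan. The histidine-depleted libraries were far below the other 4. It fell by 3.67 on the log2 scale (adjusted p = 5.34e-15) without histidine and had 0.18 (0.0784) without tryptophan, or 0.28 (0.00854) with quantile normalization. UGT1A6 fell by 3.62 (adjusted p = 6.91e-12) without histidine, but genes of this cluster share exons and their counts cannot be separated with certainty. UGT1A6 averaged 8.64 scaled counts without histidine and passed the filter on low counts only through the other libraries. The counts of called genes that include it describe the tested genes only. NQO1, a quinone reductase that is also a target of NRF2, fell from 28619 and 29468 to 8621 and 9413 scaled counts, or by 1.68 (adjusted p = 7.04e-19), without histidine. NEDD9, a scaffold of focal adhesions, was the gene that rose there, by 1.94 (adjusted p = 5.89e-20), and it had 0.012 (0.86) without tryptophan.

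ALDH3A1, an aldehyde dehydrogenase and classical target, differed most between the depletions in this list. It had 896 and 866 scaled counts in untreated cells, 236 and 241 without histidine and 5772 and 5465 without tryptophan. As for CYP1B1, the groups did not overlap, and untreated cells lay between them. It fell by 1.87 (adjusted p = 6.8e-16) without histidine and rose by 2.66 (1.21e-88) without tryptophan on the log2 scale. EREG, an EGF-family ligand, fell by 0.74 (adjusted p = 1.5e-12) and rose by 1.00 (1.21e-43). ABCG2, a drug efflux pump, fell in both, by 1.81 (adjusted p = 4.25e-19) and 1.18 (7.19e-48). Set directly against each other, the depletions gave 8 of these 10 genes lower without histidine and 1 higher, against 38.4% and 39.9% of all tested genes. NQO1 and NFE2L2 were among the 5 called higher without tryptophan but did not pass with quantile normalization (-0.036 and 0.048 on the log2 scale).

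**Figure D2:**
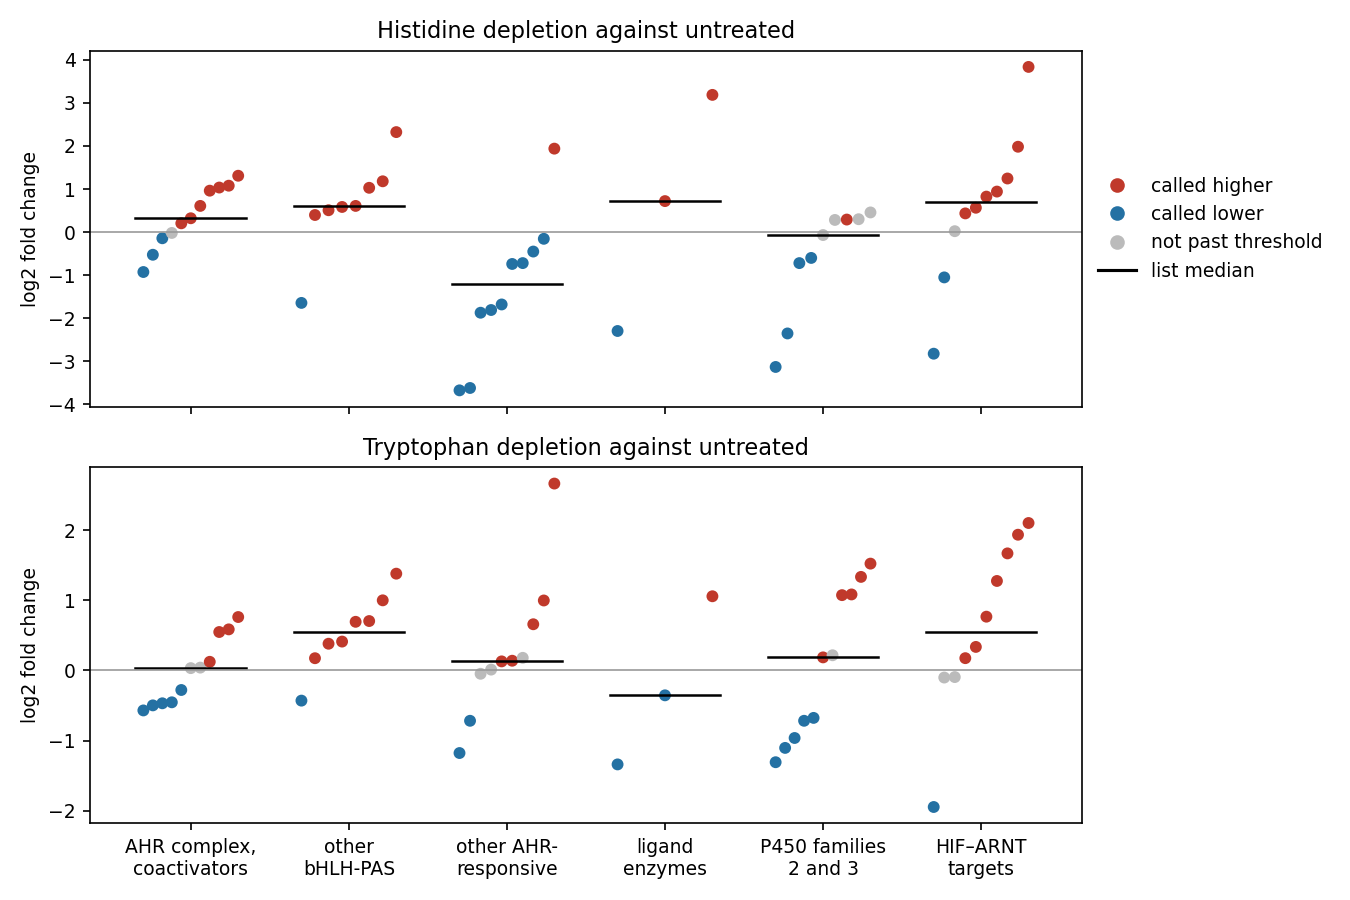
Log2 fold change (vertical axes) of the tested genes in 6 lists related to the receptor, above for histidine and below for tryptophan depletion against untreated cells. Points are genes, coloured by their call, and bars are list medians. The other AHR-responsive genes have a median of -1.21 without histidine and 0.13 without tryptophan.

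The enzymes that can turn tryptophan into ligands of the receptor were unevenly expressed, and 3 of the 7 genes were tested. IDO1 and IDO2, which open the kynurenine pathway, were at 0 reads in all 6 libraries, and TDO2 reached at most 8.54 scaled counts. AADAT, a kynurenine aminotransferase, fell from 277 and 262 scaled counts to 47.9 and 60.0 without histidine, and to 113 and 99.8 without tryptophan. The log2 fold change was -2.30 (adjusted p = 1.67e-12) and -1.34 (1.19e-17). AFMID, the formamidase of the pathway, was well expressed, with 1640 and 1645 scaled counts in untreated cells, 2648 and 2728 without histidine and 1324 and 1258 without tryptophan. It rose by 0.72 (adjusted p = 1.47e-11) and fell by 0.35 (1.8e-08) on the log2 scale. IL4I1, an amino acid oxidase named here after its values were seen, had 5.47 and 6.96 scaled counts in untreated cells, 70.5 and 58.0 without histidine and 10.7 and 18.3 without tryptophan. It rose by 3.19 (adjusted p = 3.52e-09) without histidine and by 1.06 (0.0422) without tryptophan, where the call was lost with quantile normalization (1.01, adjusted p = 0.0552). Like CYP1A1 and AHRR it passed the filter on low counts only through the depleted libraries.

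P450 enzymes of families 2 and 3, which are mainly tied to other receptors, were listed for contrast with the family 1 genes. Of 17 genes 9 were tested without histidine, with 1 higher and 4 lower (39.1% and 38.2% of all tested genes) and a median log2 fold change of -0.069. Without tryptophan 11 were tested, with 5 higher and 5 lower (36.1% and 34.8% of all) and a median of 0.19. Of these, CYP2A6 (called higher) and CYP2C18 and CYP2J2 (called lower) averaged under 10 counts in their lower group. They passed the filter on low counts only through the other group, so these counts describe the tested genes only. CYP2B6, a target of the receptor CAR, had 702 and 727 scaled counts in untreated cells, 65.1 and 98.7 without histidine and 799 and 835 without tryptophan. It fell by 3.13 (adjusted p = 4.98e-16) without histidine. Without tryptophan its log2 fold change was 0.19 (adjusted p = 0.0138), which did not pass with library totals (0.12, adjusted p = 0.0936). CYP3A5, a steroid and drug hydroxylase, had -0.069 (adjusted p = 0.236) without histidine and rose by 1.52 (1.34e-64) without tryptophan, from 4212 and 3914 to 11679 and 11766 scaled counts. Without histidine it passed as lower with quantile normalization (-0.20, adjusted p = 0.00521) and library totals (-0.26, adjusted p = 5.97e-04). CYP2R1, a vitamin D 25-hydroxylase, rose by 0.29 (adjusted p = 5.84e-04) and 1.07 (6.21e-35), the former not passing with library totals (0.10, adjusted p = 0.134). CYP2S1, which also stands in the list of other genes reported to respond to the receptor, fell by 0.72 (adjusted p = 4.03e-12) and 0.72 (8.89e-31).

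Since ARNT also serves the hypoxia-inducible factors, 10 of their targets were examined. Without histidine 7 were called higher and 2 lower (39.1% and 38.2% of all tested genes), with a median log2 fold change of 0.69. Without tryptophan 7 were higher and 1 lower (36.1% and 34.8% of all), with a median of 0.55. With library totals these became 6 and 3, and 4 and 3. ANGPTL4, called higher in both media, averaged 9.99 scaled counts in untreated cells. It passed the filter on low counts only through the depleted libraries. ADM, which encodes the peptide adrenomedullin, rose from 193 and 192 scaled counts to 2714 and 2776 without histidine and to 451 and 490 without tryptophan, or by 3.83 (adjusted p = 4.8e-23) and 1.28 (1.27e-23) on the log2 scale. VEGFA, the angiogenic growth factor, had 0.021 (adjusted p = 0.738) without histidine and rose by 1.67 (2.14e-66) without tryptophan. Without histidine it turned lower with quantile normalization (-0.23, adjusted p = 0.00971) and library totals (-0.17, adjusted p = 0.0184). NDRG1 rose by 0.43 (adjusted p = 5.77e-07) and 2.10 (3.33e-81). CA9, a carbonic anhydrase often used as a hypoxia marker, went the other way, from 3076 and 2949 scaled counts to 363 and 490 without histidine and 815 and 755 without tryptophan. Its log2 fold change was -2.82 (adjusted p = 6.03e-19) and -1.95 (2.54e-67).

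For the 4 genes with at least 100 scaled counts on average, the protein-coding genes with the most similar course over the 6 libraries were sought among 11013 candidates, by the root mean square difference of centred log2 values. CYP1B1 was closest to INHBE, a subunit of activin and a known stress-response gene, at 0.156, then to CYP4F12, a P450 of family 4, at 0.196, and CCDC33 at 0.203. INHBE had 122 and 125 scaled counts in untreated cells, 81.3 and 89.5 without histidine and 1019 and 1136 without tryptophan. TIPARP was closest to NT5E, the ectonucleotidase CD73, at 0.0292, and to TRIP11 and SDE2 at 0.0340 and 0.0379. NT5E had 3843 and 4086 scaled counts in untreated cells, 9152 and 9094 without histidine and 7378 and 7278 without tryptophan. AHR was closest to RAPGEF1 (0.0331), PARD3 (0.0334) and SURF4 (0.0391), and ARNT to FBXO45 (0.0129), OLA1 (0.0178) and DCP2 (0.0189). Since only 3 conditions with 2 libraries each define a course, many genes can match it, and the distances were largest for CYP1B1, whose changes between conditions were also the largest of the 4.

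The amino acid removed is itself encoded in these transcripts, so its share of codons was counted in the main transcript of each gene. Histidine made up 2.03% of codons in ARNT and 3.65% in TIPARP, the lowest and highest of the 7 genes, against a median of 2.43% over 19061 coding sequences. Tryptophan made up 0.59% in AHR and 1.74% in CYP1A2, again the extremes, against a median of 1.12%. CYP1A1, CYP1A2, CYP1B1 and TIPARP were above both medians.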

How the data were processed

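Stranded polyA mRNA libraries with molecular identifiers were made from 6 samples, 2 per condition. The authors aligned reads to GRCh38 with STAR 2.7.10a, counted them per gene with HTSeq 2.0.5 and deposited, for each depletion, a table of counts divided by DESeq2 size factors, a normalized read count signal that is never negative. The untreated libraries are the same in both tables, which were normalized separately. The use of strand, identifiers and multiply mapped reads in counting is not given in the sources used here.

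Every value (100%, tolerance 0.01 reads) was a whole multiple of a step per library, which gave back whole reads. Genes were matched to gencode 44 (60357 of 60676). Each depletion was compared with untreated cells within its table by limma 3.58.1 in R 4.3.3 (trend, two-sided) on log2(value + 1) (genes under a mean of 10 left out), with Benjamini-Hochberg adjustment over all tested genes and a threshold of 0.05. The depletions were compared with each other on recovered reads scaled jointly over 6 libraries, which also give the scaled counts. RPKM used exon lengths of gencode 44. Alternatives were pseudocounts of 0.5 and 8, other filters, limma without trend, quantile normalization, edgeR 4.0.16, DESeq2 1.42.0, all 6 libraries in 1 fit, a replicate block and each library left out. Scaling to total reads was added after seeing the data.

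The 7 genes and the lists were chosen with earlier results of these data known. Named are all 7, up to 3 called genes of a list and comparison with the largest change and a mean of at least 100 in the higher group, and the 3 genes most like each of the 7 with a mean of at least 100. PTGES3, HIF1A, NQO1, NFE2L2, IL4I1, TDO2, IDO1, IDO2, ARNT2, CYP2A6, CYP2C18, CYP2J2 and ANGPTL4 fall outside this rule and were named after their values were seen. Not every gene this rule selects is described, and 1 gene counted in the list of the receptor complex is not reported here. The lists hold 11 genes of the receptor complex, 13 bHLH-PAS, 13 responsive, 7 ligand enzyme, 17 P450 and 10 HIF target genes. Fibroblast and endothelial markers summed to 29.8 to 73.6 and 26.6 to 55.7 scaled counts, with COL1A2 at 0. Hepatocyte markers, almost all SERPINA1 and with ALB at most 4.52, summed to 11796 to 12093 in untreated cells. They summed to 2274 to 2860 without histidine and 9275 to 9433 without tryptophan. Their part in the falls of other genes without histidine was not tested. Python 3.11.15, numpy 2.4.6, pandas 2.3.3 and matplotlib 3.10.9 were used.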

Additional observations from a re-analysis of the deposited data

Results flagged for a closer look

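The responses to the depletions differed by a direct test for 3 genes. For CYP1B1 the log2 difference between histidine-depleted and tryptophan-depleted cells was -3.32, and the gene fell in the former and rose in the latter against untreated cells. TIPARP differed by 0.32 and rose in both. ARNT differed by 0.13, a call that was lost in several alternatives given above. Against untreated cells it was called lower without tryptophan and did not pass without histidine. Groups of 2 libraries allow no test for an outlying sample.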

How the results depend on the processing

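Of 258 fold changes recomputed with a test, 231 kept their direction and side of the threshold. The rises of AHR, CYP1A1 and TIPARP in both media, and the rise of CYP1B1 without tryptophan, passed in every alternative in which they were tested. With a mean of at least 50 the calls of higher genes numbered 2 without histidine and 3 without tryptophan, because CYP1A1 and AHRR were not tested. Both passed the main filter only through the depleted libraries, so their calls only describe the rises. Lower calls without histidine numbered 2 with edgeR and 2 with library totals, and 0 to 2 with a library left out (0 without untreated replicate 2, 2 without untreated replicate 1). Between the depletions, higher calls numbered 1 with limma without trend, 1 with quantile normalization, 1 with DESeq2, 1 with library totals and 1 to 2 with a library left out (1 without tryptophan depletion replicate 1), and lower calls 2 with library totals. The log2 difference between the depletions changed sign with a library left out for AHR (-0.059 to 0.039), AHRR (-0.70 to 0.11) and CYP1A1 (-0.23 to 0.15), and was 0.0062 for AHR from the separately normalized tables, where no test was run. A fit with a library left out assumes that the lone library varies like the other group. The causes of these shifts, beyond fewer genes or libraries, were not tested. Nothing states that replicate numbers pair the samples. Correlations of replicate deviations between groups were 0.106, 2.28e-04 and -0.0496, which with 2 libraries a group cannot exclude a pairing. A replicate block left all 27 values on the same side (14432, 12766 and 14335 genes called). Depth limits AHRR, CYP1A1 in untreated cells and CYP1A2.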
